A study of Caenorhabditis elegans with 2 samples.

Results

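The genes described here encode Rab, Arf, Arl and Vps proteins, which direct membrane traffic in the cell. They were chosen by symbol alone, as every protein-coding gene of the nuclear chromosomes whose symbol begins with rab-, arf-, arl- or vps- followed by digits, which gave 60 of 19973 genes in the Ensembl annotation of WBcel235. The group has 20 Rab genes, 9 Arf and Arl genes and 31 Vps genes. They were examined in a ChIP-seq experiment with 1 group of 2 biological replicates of whole Caenorhabditis elegans hermaphrodites, collected as L1 larvae 6 hours after synchronization of starved hatchlings obtained by bleaching. All animals were of strain OP210 (unc-119(ed3) III; wgIs210), in which CEH-90, a homeobox protein, is expressed from a stable transgene as a fusion to GFP and FLAG at the C-terminal end. Anti-GFP antibody was used to precipitate the sonicated chromatin. The labels do not say which promoter drives the transgene, and no immunoprecipitation from worms without the fusion was analysed here. Binding of CEH-90 and a general recovery of DNA at gene starts therefore cannot be told apart.

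Rab and Arf proteins are small GTPases that switch between an active and an inactive state and mark the membranes of single compartments. Rab proteins recruit tethers and motors, whereas Arf proteins recruit coats. The Vps genes take their name from yeast mutants defective in vacuolar protein sorting. They encode subunits of ESCRT complexes, which bud and cut membrane away from the cytosol, of HOPS and CORVET, which tether endosomes and lysosomes, of GARP and EARP, which tether vesicles at the Golgi and at endosomes, and of retromer, which returns cargo from endosomes.

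The sites of vps-20, vps-51 and vps-4, on the first chromosome, are described below without their sequence. The sequences under the 6 strongest member sites outside the first chromosome are shown here. Each runs 5' to 3' in the direction of the member, 75 bp to either side of the peak summit, in RefSeq sequence of WBcel235 (ce11), without bases annotated as UTR. The intervals are chrIII:8700676-8700826 on the plus strand for vps-33.1, chrII:11967689-11967839 on the minus strand for rab-7, chrIII:4963045-4963195 on the minus strand for vps-22, chrII:4993924-4993997 on the plus strand for vps-24, chrV:8606526-8606676 on the minus strand for vps-60 and chrII:12768440-12768590 on the minus strand for vps-2. At vps-24, 77 bases including the summit were left out as UTR. Capitals mark matches, on either strand, to any of 7 motifs of 6 bases that were searched. These are GGCCAC, the related GGCCTA, the overlapping CGGCCA, then CTAGGC, the CG-rich ACGCGC, and the AT-rich pair of ATCGAT with ATCAAT.

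vps-33.1: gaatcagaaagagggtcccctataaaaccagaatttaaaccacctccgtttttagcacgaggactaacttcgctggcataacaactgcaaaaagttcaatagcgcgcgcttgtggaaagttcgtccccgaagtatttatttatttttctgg
rab-7: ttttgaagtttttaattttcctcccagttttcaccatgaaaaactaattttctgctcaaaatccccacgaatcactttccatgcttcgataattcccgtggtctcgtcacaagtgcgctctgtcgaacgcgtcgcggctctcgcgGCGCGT
vps-22: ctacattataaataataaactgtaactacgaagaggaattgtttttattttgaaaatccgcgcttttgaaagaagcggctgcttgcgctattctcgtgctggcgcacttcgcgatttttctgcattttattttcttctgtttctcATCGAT
vps-24: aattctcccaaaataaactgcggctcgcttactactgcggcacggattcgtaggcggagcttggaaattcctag
vps-60: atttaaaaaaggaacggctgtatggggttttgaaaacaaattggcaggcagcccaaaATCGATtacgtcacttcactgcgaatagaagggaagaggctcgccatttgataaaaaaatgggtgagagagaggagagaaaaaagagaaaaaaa
vps-2: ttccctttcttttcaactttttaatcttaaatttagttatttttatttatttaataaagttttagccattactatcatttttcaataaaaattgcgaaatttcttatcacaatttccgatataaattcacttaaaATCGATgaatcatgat

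Genes were scored by the authors' peak lists in build ce11. The IDR list, which keeps peaks by the irreproducible discovery rate, a statistic of the similarity of peak order in replicates, held 765 peaks, which were the 765 strongest of the 30000 peaks in the list pooled from both replicates. A gene had an IDR site when an IDR summit lay from 1000 bp upstream to 200 bp downstream of one of its annotated transcript starts. The replicate lists held 23796 and 30000 peaks, and both they and the pooled list were deposited as peaks together with background. Signal is the authors' value per peak, with no stated scaling, so it is used for ranks within a list. The lists give no read counts, and depth was therefore unknown.

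Sites were found at 10 of the 60 genes, and 9 of the 10 were Vps genes. The share was 16.7% (exact 95% interval 8.29 to 28.5%), against 4.46% of all protein-coding genes (891 of 19973). By family, a site lay at 9 of 31 Vps genes, or 29.0% (14.2 to 48.04%), at 1 of 20 Rab genes, or 5.00% (0.127 to 24.9%), and at 0 of 9 Arf and Arl genes. The exact interval for 0 of 9 reaches 33.6%. The interval for Rab genes includes the share over all genes. Intervals here cover counting over genes only. No test was made, because there was 1 group of 2 replicates. The genes were set by symbol, but with earlier results of these data known.

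**Figure D1:**
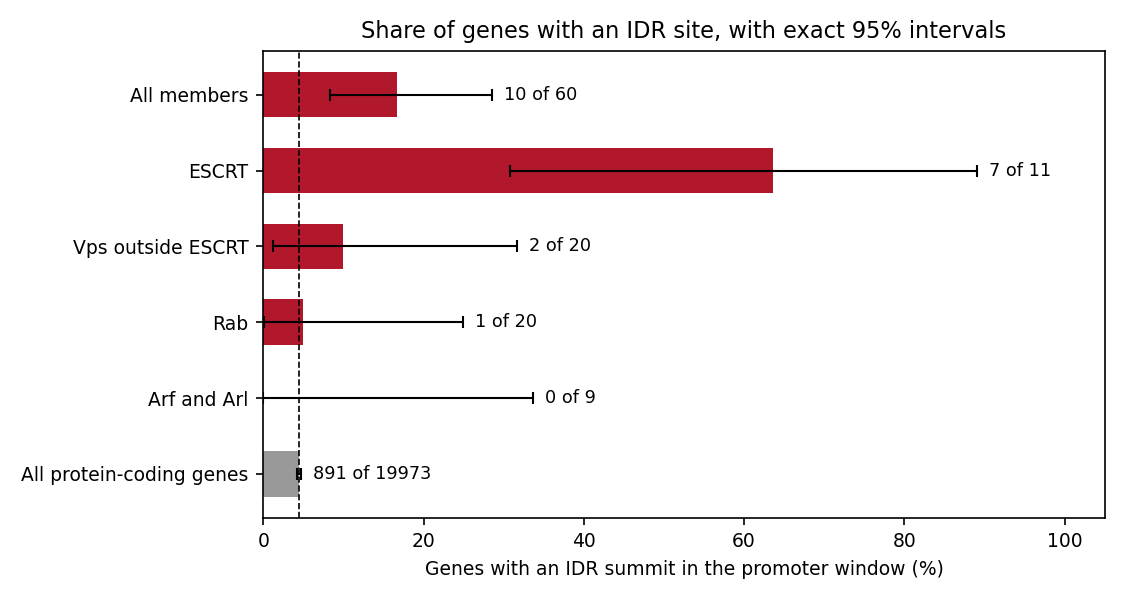
Share of genes with an IDR summit in the promoter window (bars, x axis in percent), with exact 95% intervals (lines) and counts, for all members, for groups of them and for all protein-coding genes. The dashed line is the share of 4.46% over all protein-coding genes. Of the groups drawn, ESCRT genes, at 7 of 11, had the highest share and the Arf and Arl genes, at 0 of 9, the lowest.

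Genes of the ESCRT machinery accounted for 7 of the 10 sites. A site was found at 7 of 11 ESCRT genes (63.6%, 30.8 to 89.1%) and at 2 of the 20 other Vps genes (10.0%, 1.23 to 31.7%). The 11 are only those ESCRT genes that have a vps- symbol. Among them, all 6 for ESCRT-III subunits and their ATPase had a site, namely vps-20, vps-24, vps-4, vps-60, vps-2 and vps-32.1. The count was 1 of the 5 for ESCRT-I and ESCRT-II. Genes of the machinery under other symbols are given with the lists below, and most of those had no site. The roles come from textbook knowledge, but the split by role was made after the values were seen. The difference between roles was not tested.

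The strongest of the ESCRT sites was at vps-20, which encodes the ESCRT-III subunit that links ESCRT-II to the growing filament. Its summit lay 21 bp downstream of the start, in the annotated 5' UTR, and the peak covered 636724 to 636883 on chromosome I. The peak ranked 145 of the pooled list with a signal of 286.7, and it ranked 140 in replicate 1 and 164 in replicate 2. The gene for the filament's main subunit in yeast, Snf7, corresponds to vps-32.1. Its site was the weakest of the 10, at rank 546 and a signal of 86.1, with ranks of 400 and 663 in the replicates, and the summit lay 607 bp upstream of the start on chromosome II, in a peak from 6588886 to 6589315.

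The genes for the subunits that cap the filament in yeast are vps-24 and vps-2. At vps-24 the summit was 1 bp past the start, in a peak from 4993784 to 4994213 on chromosome II (rank 285, signal 133.8), and the ranks were 261 and 368 in the replicates. At vps-2 it was 298 bp upstream of the start, in a peak from 12768300 to 12768729 on chromosome II (rank 523, signal 87.9). The replicates differed most at this gene, with a rank of 1079 and a signal of 27.6 in replicate 1 and a rank of 449 and a signal of 54 in replicate 2. In replicate 1 its peak was thus outside the strongest 765, the only one of the 10 member peaks for which this was so in either replicate.

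The ATPase that takes ESCRT-III apart is the product of vps-4, and vps-60 encodes a further ESCRT-III protein. At vps-4 the summit lay 258 bp upstream of the start, in a peak from 1066942 to 1067371 on chromosome I (rank 315, signal 123.2), with ranks of 272 and 524 in the replicates. The site of vps-60 lay 473 bp upstream, in a peak from 8606386 to 8606815 on chromosome V (rank 398, signal 105.4), with ranks of 340 and 496. No other protein-coding start had either summit in its window. These were the only 2 member sites of which that was true.

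The ESCRT-II gene vps-22 was the one gene of the earlier-acting complexes with a site. Its summit ranked 278 (signal 138.7), with ranks of 262 and 326 in the replicates, and lay 627 bp upstream of the start, in a peak from 4962905 to 4963334 on chromosome III. The other ESCRT-II genes were vps-25, at rank 1443 of the pooled list, and vps-36, with no summit in any of the lists. Of the ESCRT-I genes, vps-28 ranked 1471 and vps-37 ranked 2760. In replicates 1 and 2, the best ranks in the window were 3145 and 1268 for vps-25, 1336 and 5736 for vps-28, and 16289 and 1832 for vps-37. These are not always the same peak. In replicate 1 the best summits of vps-25 and vps-28 lay over 100 bp from the pooled-list summit. The q-values in the authors' pooled list were 0.219 for vps-25, 0.226 for vps-28 and 0.551 for vps-37, against at most 0.00287 at the 10 IDR sites. Of the 11 ESCRT genes, 10 had a pooled-list summit, and all 10 ranked above the median of 9250.5 over all protein-coding genes with one.

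Among the tethers, vps-51, a subunit shared by GARP and EARP, and vps-33.1, a Sec1/Munc18 protein that is part of HOPS and CORVET, had sites nearly as strong as that of vps-20. At vps-51 the peak ranked 148 (signal 278.6), covered 5807287 to 5807716 on chromosome I and had its summit 211 bp upstream of the start. Its signals of 110.4 in replicate 1 and 181.2 in replicate 2 gave ranks of 166 and 123. At vps-33.1 the peak ranked 159 (signal 258.5), covered 8700669 to 8700841 on chromosome III and had its summit 176 bp upstream. Its signals of 126.6 and 131.4 gave ranks of 150 and 158.

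The other members grouped with these tethers did not share the high rank. The other subunits of GARP and EARP ranked 9229 for vps-50, 10408 for vps-53 and 18780 for vps-52, while vps-54 had no pooled-list summit. Of the other genes grouped with HOPS and CORVET, vps-33.2, the paralogue of vps-33.1, was next below the IDR list among all 60 genes, at rank 1028 (signal 63.1, q of 0.0842), with ranks of 1217 and 1763 in the replicates. Its summit was 41 bp upstream of the start and inside an intron of epg-5, an autophagy gene on the opposite strand. After it came vps-39 at 3137, vps-16 at 5800, vps-18 at 9249 and vps-8 at 23538, and vps-11 and vps-41 had none. The best summits of vps-39 ranked 4408 and 19524 in the replicates, that of replicate 2 over 100 bp from the pooled-list summit. No retromer gene (vps-26, vps-29 and vps-35) had a pooled-list summit, nor had vps-15 and vps-34, which encode the endosomal phosphatidylinositol kinase and its regulator, or vps-13, which encodes a lipid transfer protein. The gene for the Sec1/Munc18 protein vps-45 ranked 7144.

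**Figure D2:**
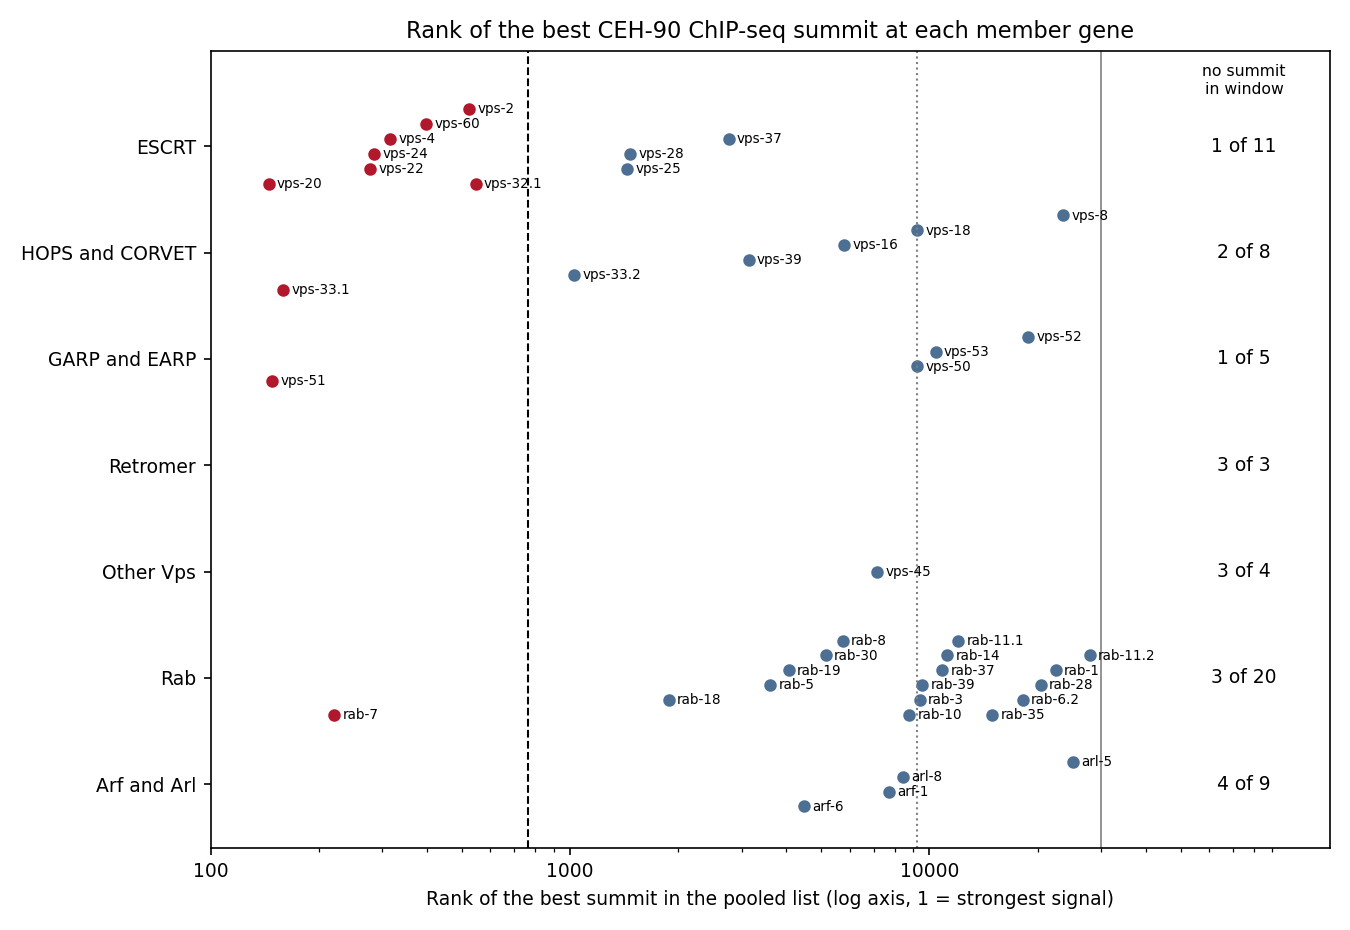
Rank in the pooled list (x axis, logarithmic) of the best summit in the promoter window of each member, by role. Red points have an IDR site and blue points do not. The dashed line marks the length of the IDR list (765), the dotted line the median rank of 9250.5 over all protein-coding genes with a summit, and the solid line the end of the pooled list (30000). The numbers on the right count members with no summit in the window, and 1 Arf or Arl gene with a summit is not drawn. ESCRT genes gather at the left, between ranks 145 and 2760, and Rab genes spread from 221 to 27905.

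The Rab genes had pooled-list summits often, but of low rank. A summit lay at 17 of 20 (85.0%, 62.1 to 96.8%), against 41.4% of all protein-coding genes (8278 of 19973), 71.7% of the 60 members (43, 58.6 to 82.5%) and 67.7% of the Vps genes (21). Their median rank was 9531 (quartiles 5148 and 14933), close to that of all genes, whereas it was 1443 for the Vps genes (quartiles 315 and 7144) and 5800 for all members. Of the 17, 7 ranked above the median of all genes. The pooled list includes background, so a low-ranking summit is not a site in the sense of the IDR list.

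The exception was rab-7, which encodes the GTPase of late endosomes and lysosomes. Its peak, from 11967549 to 11967978 on chromosome II, ranked 221 (signal 173.9), with signals of 64.5 and 108.3 and ranks of 265 and 188 in the replicates. The summit was 833 bp upstream of the start, the farthest of the 10 sites. The next Rab genes were rab-18, which acts at the endoplasmic reticulum and lipid droplets, at rank 1883, the early endosomal rab-5 at 3600, and rab-19 at 4062. Of these, rab-18 ranked 1071 in replicate 1 and 6187 in replicate 2, and rab-5 ranked 3244 and 4266. The best summits of rab-19 ranked 2447 and 2228, but that of replicate 1 lay over 100 bp from the pooled-list summit. The secretory Rab genes were lower, with rab-8 at 5743, rab-3, of synaptic vesicles, at 9400 and rab-1, of the early secretory pathway, at 22482. The recycling Rab genes ranked 8786 for rab-10, 12013 for rab-11.1 and 27905 for rab-11.2. No pooled-list summit was found at rab-6.1, rab-21 or rab-33.

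Of the Arf and Arl genes, 5 of 9 had a pooled-list summit, and none ranked above 4473. That rank belonged to arf-6, which acts at the plasma membrane and in recycling. The Golgi gene arf-1 ranked 7705, the lysosomal arl-8 8449 and arl-5 25079. In replicates 1 and 2, the best summits ranked 1927 and 1720 for arf-6 and 3581 and 3421 for arf-1. For both genes, that of replicate 1 lay over 100 bp from the pooled-list summit. The best summit of arl-8 ranked 1315 in replicate 1 but 29021 in replicate 2, where it lay over 100 bp from the pooled-list summit. No pooled-list summit was found at arf-5, arl-1, arl-3 or arl-6.

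In all, 17 of the 60 genes had no pooled-list summit. In the replicate lists, 2 of the 17 had a summit in both, 7 in 1 and 8 in neither. The highest of these ranks was 2017, for vps-13 in replicate 1, with no summit in replicate 2.

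Both replicates held the member sites. Within 100 bp of the IDR summit, 9 of the 10 had a peak among the strongest 765 of both replicates, against 501 of all 765 IDR peaks (65.5%), and 10 of 10 did so in the full lists (93.7% of all IDR peaks). Ranks came from lists of different lengths and are given only to place each peak within its list. Across the 24 members with a peak in both replicates at the best pooled summit, the ranks had a Spearman's rho of 0.773, and across the 14 of them without an IDR site it was -0.0418. These coefficients are across genes that share both libraries, so no p is given. The IDR list was drawn from the same replicates, so these values are no independent check of it.

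**Figure D3:**
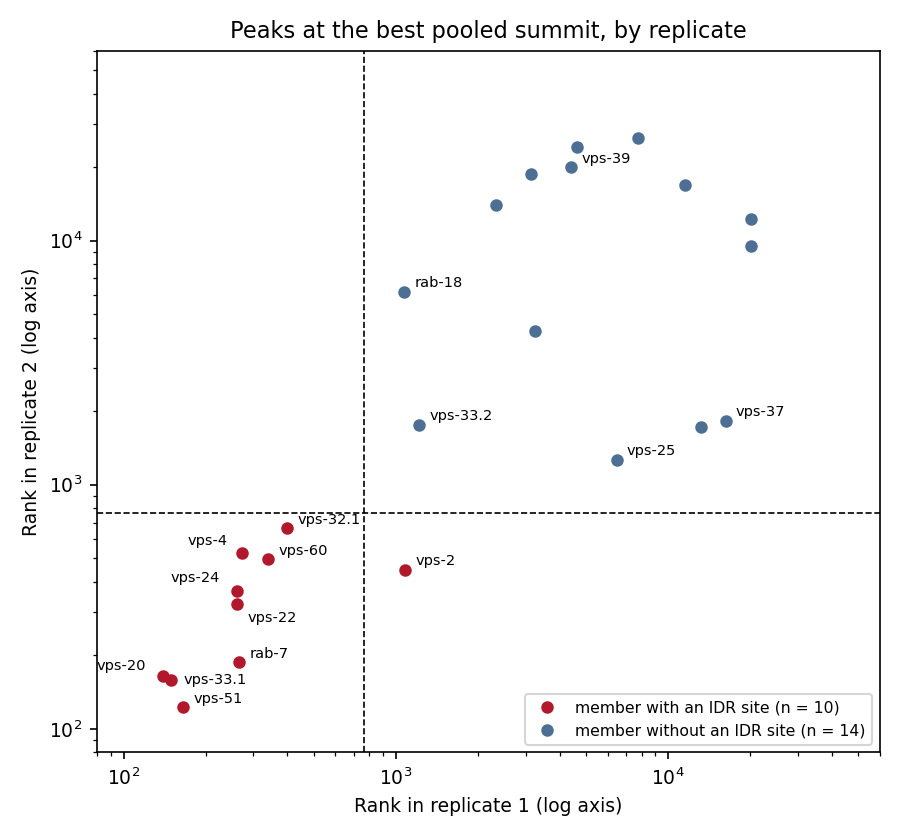
Rank in replicate 1 (x axis) and replicate 2 (y axis), both logarithmic, of the peaks within 100 bp of the best pooled summit, for the 24 members with such a peak in both replicates. Red points (n = 10) have an IDR site, blue points (n = 14) do not, and dashed lines mark rank 765. The points with a site lie in the lower left, apart from vps-2 at 1079 and 449, and those without a site are scattered.

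Most member sites lay at the starts of other genes as well. At 8 of the 10 peaks the summit was in the window of another protein-coding gene. Over all IDR peaks at a coding start, the count was 288 of 610 (47.2%). These shares are not like for like. The 10 peaks were reached through genes, so a peak at several starts was more likely to be included. The 610 peaks lay at 891 genes, and the share per gene was not counted. An excess of sharing among the members therefore cannot be read from these shares. None of the 10 peaks was shared by a pair of members. At vps-20 the partner was eif-4A3, for a core protein of the exon junction complex, 480 bp from the summit. At vps-51 it was lin-35, the retinoblastoma gene of the worm, whose start at 207 bp was nearer than that of vps-51 at 211 bp. At vps-33.1 it was sdz-1, at 412 bp. At vps-2 it was tiar-2, for an RNA-binding protein of the TIA family, at 171 bp and nearer than vps-2. At vps-32.1 it was icd-1, for a subunit of the nascent polypeptide-associated complex, at 446 bp and nearer than vps-32.1. At vps-24 the partners were eif-1, for translation initiation factor eIF1, at 419 bp, and pigb-1 at 922 bp. All of these partners are transcribed away from the member.

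At rab-7 and vps-22 the summit lay before an upstream gene on the same strand. The start of W03C9.5 was 220 bp from the rab-7 summit, and that of C27F2.9 was 76 bp from the vps-22 summit. In both cases the annotated start of the member lies inside that upstream gene. The divergent start of mex-1, for a zinc finger protein of the early embryo, was also in the window at rab-7, at 873 bp. With every summit assigned to the closest protein-coding start alone, 5 of the 60 members kept a site (8.33%), namely vps-20, vps-33.1, vps-24, vps-4 and vps-60, against 2.98% of all protein-coding genes (595 of 19973). Of these 5, 4 are ESCRT genes. Whether CEH-90 acts on any of the genes at a shared peak was not measured.

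**Figure D4:**
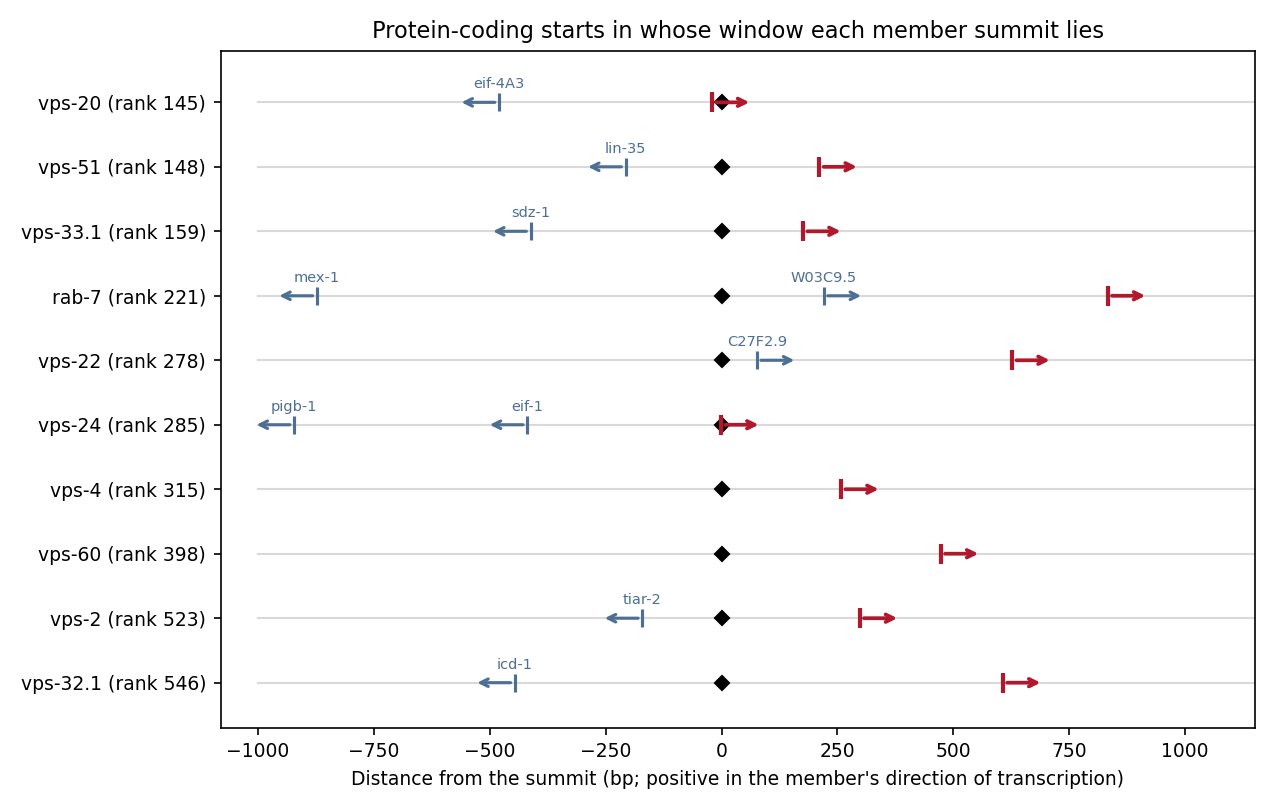
Protein-coding starts in whose promoter window each of the 10 member summits lies. The x axis is the distance from the summit (black diamond) in bp, positive in the direction in which the member is transcribed. Red marks are member starts and blue marks other starts, with arrows for the direction of transcription. W03C9.5 and C27F2.9 stand between the summit and the starts of rab-7 and vps-22, vps-4 and vps-60 stand alone, and all other partners point away from the member.

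Gene arrangement differed in the counts between members with and without a site. Of the 10 with a site, 8 had an upstream neighbour transcribed in the opposite direction, 0 had one in the same direction ahead of their start, and at 2 the start lay inside another gene. Of the 50 without a site, 16 had a divergent neighbour (32.0%), 29 a tandem one (58.0%) and 5 a start inside another gene. Over all protein-coding genes with an IDR site the divergent share was 67.6% and the tandem share 26.4%, and over all protein-coding genes these were 42.2% and 50.9%. Of the 17 members without a pooled-list summit, 15 had a tandem neighbour. The gaps to these neighbours were short at the retromer genes, at 173 bp for vps-26, 88 bp for vps-29 and 190 bp for vps-35. As background, many worm genes are trans-spliced or lie in operons, so that transcription can begin upstream of an annotated start. The part of this in the counts was not tested.

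The chromosomes carried members in unequal numbers. Sites lay at 3 of 13 members on chromosome I, 4 of 14 on II, 2 of 14 on III, 0 of 7 on IV, 1 of 6 on V and 0 of 6 on X. The shares over all protein-coding genes were 6.39% on I, 5.05% on II, 7.99% on III, 4.72% on IV, 2.70% on V and 1.17% on X.

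Motifs were counted on both strands within 50 bp of each summit. Of GGCCAC, the related GGCCTA, the overlapping CGGCCA, then CTAGGC and the CG-rich ACGCGC, at least 1 was found at 2 of the 10 member summits, against 257 of the 610 IDR summits at coding starts (42.1%) and 742 of the 9510 weaker pooled-list summits at coding starts (7.80%). These 5 motifs were known from an earlier result on these data. The difference between the 610 and the weaker summits is therefore no independent support for them. The 5 motifs share bases with one another, so that 1 stretch can match several. At vps-20, all of them but ACGCGC were found, in a run from 26 to 13 bp before the summit. At vps-24, GGCCTA on one strand and CTAGGC on the other covered 4 to 10 bp after it, in the bases left out as UTR. None of the 5 was found within 50 bp at the other 8 sites.

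The motif ATCGAT was found within 50 bp of 3 of the 10 member summits, at vps-20, vps-51 and vps-60, against 4.43% of the 610. At both vps-51 and vps-60 it lay from 13 to 18 bp from the summit. In the printed sequences it also appears at or near the end of the vps-22 and vps-2 intervals, more than 50 bp from the summit. The capitals at the end of the rab-7 interval are a match to ACGCGC on the other strand. That match also lies more than 50 bp from the summit, so it is not in the counts within 50 bp. ATCAAT was found at 1 member summit, vps-20, against 6.89%. At the 9510 weaker pooled-list summits at coding starts the shares were 4.54% for ATCGAT and 10.4% for ATCAAT. Neither motif was thus more frequent at the 610 than at the weaker summits. A match is only a description of letters. Among the 33 members with a pooled-list summit and no site, 4 had at least 1 of the 5 motifs, namely vps-37, vps-45, rab-8 and rab-39. This was 12.1%, against 7.80% of the weaker pooled-list summits at coding starts. Of the same 33, ATCGAT was found at 1, vps-28, and ATCAAT at 1, rab-10. The mean GC content within 50 bp was 41.9% at the 10 member summits, 43.8% at the 610 and 34.4% at the weaker pooled-list summits, and ran from 17.8% at vps-2 to 51.5% at vps-4.

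Other genes of membrane traffic, in lists written from general knowledge, had a site in a share between those of the Rab and the ESCRT genes. Over 164 genes found in the annotation of 172 listed, 21 had a site (12.8%, 8.10 to 18.9%), against the same 4.46% of all protein-coding genes. The COPI and COPII coats, which form vesicles between the endoplasmic reticulum and the Golgi, had the highest share, at 5 of 15 (33.3%, 11.8 to 61.6%), and all 15 had a pooled-list summit. They were led by copz-1, for the zeta subunit of COPI (rank 112, signal 421.1), sec-12, for the exchange factor that starts COPII assembly (rank 117, signal 414.9), and sec-23, of the inner COPII coat (rank 168, signal 239.3). The summits lay 140, 170 and 385 bp upstream of the starts. The peaks of copz-1 and sec-23 also lay at cyn-4 and dcs-1.

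The other lists had lower shares. Genes of clathrin, its adaptors and endocytosis had a site at 3 of 23, at ehs-1 (rank 192), apb-1 (rank 535) and epn-1 (rank 554). Tethers (exocyst, COG, TRAPP and golgins) had one at 3 of 29, at exoc-7 (rank 88), golg-5 (rank 219) and cogc-2 (rank 663). The list headed SNAREs had one at 3 of 32, at use-1 (rank 167), syx-5 (rank 255) and nsf-1 (rank 674). This list was not limited to SNAREs, since nsf-1, snap-1 and bet-1 on it do not encode SNARE proteins. The best summits at nsf-1 ranked 17385 in replicate 1 and 375 in replicate 2, and its site was lost without replicate 2. All 6 sites from these 2 lists were shared with another protein-coding start, at tufm-2 for exoc-7, F26A3.7 for golg-5, klp-18 for cogc-2, the proteasome gene pas-3 for use-1, F55A11.1 for syx-5 and adr-1 for nsf-1. Regulators of Rab and Arf proteins had a site at 4 of 42, led by the Arf exchange factor agef-1 (rank 441), rbg-3 (rank 607) and tbc-20 (rank 658). The peaks of apb-1 and rbg-3 also lay at mdt-19 and rps-0. With the closest start alone, 17 of the 164 listed genes had a site, without copz-1, sec-23, golg-5 and syx-5. The loss without replicate 2 was not limited to nsf-1. Of the 21 genes with a site, 15 kept it, and cogc-2, epn-1, rbg-3, did-2 and the regulator glo-4 also lost it. Without replicate 1, 18 of the 21 kept it, and apb-1, tbc-20 and glo-4 lost it. A site was gained at mvb-12 and sec-24.1 without replicate 2, and at aps-1, grp-1 and snap-1 without replicate 1.

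Partners of ESCRT, retromer and the endosomal phosphatidylinositol kinase had a site at 3 of 19, at epg-8 (rank 343), spe-39 (rank 408, shared with spn-4) and did-2 (rank 587). The last encodes the worm CHMP1, an ESCRT-III protein under another symbol. The best summits in its window ranked 2327 in replicate 1 and 374 in replicate 2. No pooled-list summit was found at hgrs-1 of ESCRT-0 or tsg-101 of ESCRT-I, and mvb-12 of ESCRT-I ranked 1176. Also without a site on this list were alx-1 at rank 3358, istr-1 at 4173, stam-1 at 12808 and usp-50 at 17164. With Rab, Arf and Vps proteins that carry other symbols added to the 60, the count was 11 of 67, the added gene being did-2.

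**Figure D5:**
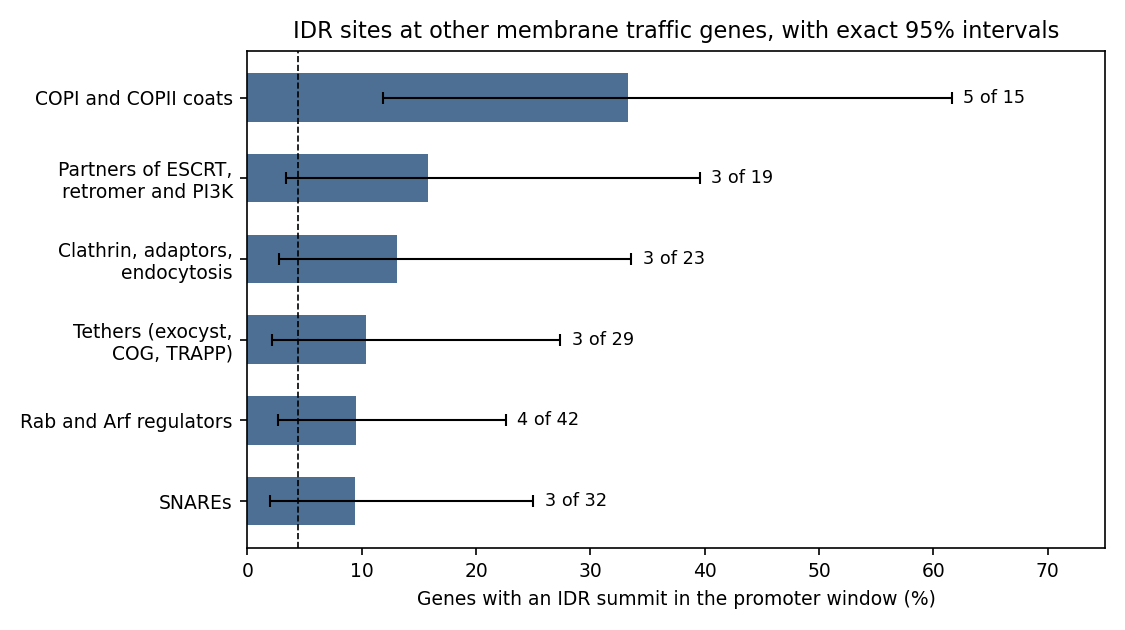
Share of genes with an IDR summit in the promoter window (bars, x axis in percent), with exact 95% intervals (lines) and counts, for 6 lists of other membrane traffic genes. The dashed line is the 4.46% of all protein-coding genes. The coat genes, at 5 of 15, had the highest share, and the intervals of all lists overlap.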

How the data were processed

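ChIP-seq peaks of 2 replicates were analysed. The authors deposited lists in narrowPeak format. Per the submitters' file descriptions, each replicate list and the pooled list came from alignments and 1 control, and the IDR list from these lists. For aligner, peak caller and IDR threshold, the sources used here give nothing. Column 7 holds the authors' signal, used to rank peaks within a list, and column 9 of the deposited files the -log10 of the q-value, used for description. Only ce11 lists were used, with Ensembl release 115 gene models. Coordinates are 1-based.

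Summits were assigned to every start in whose window they lay, with Python 3.11.15 and pandas 2.3.3, after the assignment was tested on simulated data. Exact (Clopper-Pearson) intervals at 95% came from scipy 1.17.1. Peaks matched when summits were within 100 bp. Members, lists and motifs were chosen with earlier results of these data known. The labels call the replicates biological. With 1 group, no test was made. Named genes were all members with an IDR site, the 8 best-ranked members without one, all members without a pooled-list summit, and up to 3 genes per list. Others were named to complete their complexes, after their values were seen. Windows, starts, lists and replicates were varied. The values of 1 Arf or Arl gene enter the counts but are not reported here.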

Additional observations from a re-analysis of the deposited data

How the results depend on the processing

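With each summit given to its nearest start alone, members with a site numbered 5 in place of 10, and ESCRT genes 4 in place of 7, since rab-7, vps-2, vps-22, vps-32.1 and vps-51 each had a nearer neighbour, while all protein-coding genes went from 4.46% to 2.98%. In the strongest 382 IDR peaks, members with a site numbered 7 of 60, ESCRT genes 4, without vps-2, vps-32.1 and vps-60, and genes of the pathway lists 10 in place of 21 (12.8% to 6.1%), while the share over all protein-coding genes fell to 2.52%. Within 100 bp of the member summits, at least 1 of the 5 motifs was found at 4, ATCGAT at 5 and ATCAAT at 2 of 10, against 51.3%, 10.5% and 17.2% of the 610 IDR summits at coding starts. With windows of 500 bp upstream, 7 of 60 members had a site, without rab-7, vps-22 and vps-32.1, and with 2000 bp 10 did, against 3.65% and 5.41% of all protein-coding genes. From the strongest 765 peaks of replicate 1 alone, members with a site numbered 9, without vps-2, and ESCRT genes 6, against 4.42% of all protein-coding genes. From those of replicate 2 alone they numbered 10 and 7, against 4.35%. Pathway genes with a site numbered 17 from replicate 1, with 15 of the 21 kept. They numbered 21 from replicate 2, with 18 of the 21 kept. The median pooled rank of members ran from 5743 to 7424.5 over the windows and starts tried. The alternatives for ESCRT and pathway counts were chosen after seeing the data. No paired analysis was possible because there was only 1 group.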
